A study of Rattus norvegicus with 39 samples.

Results

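Interferon-induced genes are genes that cells switch on when interferons, the secreted signals of antiviral defence, bind their receptors. Here 9 of them were followed in CA1, a field of the hippocampus: Irf1, Irf7, Ifitm3, Slfn5, Rsad2, Mx1, Mx2, Psmb8 and Psmb9. They were picked by gene symbol, with earlier results of these arrays known, for rats on a low corticosterone pellet against the rest and for the other comparisons. All 9 of the 4736 genes named were present, with 13 of the 8740 non-control probe sets, and 12 of the 13 (all 9 genes) lay above the filter on low values, a mean log2 value of 6.28.

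The study set out, per its title, to find glucocorticoid-dependent transcripts of the hippocampus. All 39 animals were male Fischer 344 rats, 18 months old at the end, with 1 Affymetrix array each. The sham rats (n = 10) kept their adrenal glands and carried an inert pellet. The other groups were adrenalectomized (ADX) and carried a slow-release corticosterone pellet for 3 months: LowCort (n = 10) a 25 mg pellet, IntermediateCort (n = 9) a 200 mg pellet, and LowInj (n = 10) the 25 mg pellet plus 5 mg of corticosterone per day, injected on 4 days at the end. Before the pellets, ADX rats had received injections of corticosterone sulfate and extra feed. The design text states that rats on the low pellet kept drinking saline with sucrose, so drinking fluid differs together with pellet dose. It also states that 1 ADX rat was removed for declining health and that killing took 2 days, and the labels do not say which rat was killed on which day.

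Interferons act through the JAK kinases and STAT transcription factors, which turn on genes with an interferon-stimulated response element (ISRE) or a gamma-activated site (GAS) in their promoters. In brain, microglia and vessel cells are among the cells that respond to them. Glucocorticoids such as corticosterone are known to dampen much inflammatory gene expression, and adrenal removal takes their natural source away.

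RefSeq promoter windows (GRCr8, 250 bases before to 50 after the gene start) were found for 8 of the 9 genes. The bases before the start are printed here for Ifitm3, Rsad2 and Slfn5, the effectors with the largest differences in LowCort, with every match to the ISRE core (GAAA, any 2 bases, GAAA) on either strand in capitals. They are written 5′ to 3′ along the gene's strand, and for Rsad2 only the 125 bases that lie outside the whole span of the gene are given. The window of Irf7 lies within the span of its gene, at an inner start, and is not printed.
Ifitm3 (chr1:205541759-205542008, minus strand): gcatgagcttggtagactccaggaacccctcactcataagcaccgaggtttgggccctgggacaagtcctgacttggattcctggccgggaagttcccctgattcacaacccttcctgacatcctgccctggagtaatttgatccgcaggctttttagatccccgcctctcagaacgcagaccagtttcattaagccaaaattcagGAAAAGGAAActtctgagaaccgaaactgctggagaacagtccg
Rsad2 (chr6:48788246-48788370, minus strand): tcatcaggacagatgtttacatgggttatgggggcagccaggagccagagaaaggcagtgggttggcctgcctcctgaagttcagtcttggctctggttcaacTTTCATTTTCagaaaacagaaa
Slfn5 (chr10:68378190-68378439, plus strand): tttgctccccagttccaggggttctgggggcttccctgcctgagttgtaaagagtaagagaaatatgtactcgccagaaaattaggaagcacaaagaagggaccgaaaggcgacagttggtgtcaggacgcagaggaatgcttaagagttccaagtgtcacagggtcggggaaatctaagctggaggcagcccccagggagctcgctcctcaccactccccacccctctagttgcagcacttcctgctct
The matches are GAAAAGGAAA in Ifitm3, which begins at position -44 from the start, and TTTCATTTTC in both Irf7 and Rsad2. The latter matches on the strand opposite to the gene's and begins at -69 in Irf7 and at -147 in Rsad2. In Slfn5 the printed stretch holds no match, while a second RefSeq start of the gene has TTTCTGTTTC from base 5 after that start, and in Psmb8 TTTCGCTTTC spans the start. Of the 8 genes, 5 had the ISRE core somewhere in a window and 3 had it wholly before the start. Among all 33469 windows, 3.92% held it anywhere and 3.41% before the start. The GAS letters TTCNNNGAA occurred in Ifitm3, Irf1 and Psmb8, against 8.87% of all windows, and a glucocorticoid response element (GNACA, any 3 bases, TGTNC) in 0 of the 8 genes, against 0.439% of all windows. Letters in a window are a description and show no binding.

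Some members lie near each other in the genome. Irf7 lies 255.2 kb from Ifitm3 on chromosome 1, Psmb9 lies 11.9 kb from Psmb8 on chromosome 20, and Mx2 lies 80.4 kb from Mx1 on chromosome 11. Rsad2 is on chromosome 6, and Irf1 and Slfn5 are both on chromosome 10 (GRCr8).

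Across the animals, Ifitm3 and Slfn5 were highest in LowCort, lower in LowInj and lowest in sham and IntermediateCort, while Rsad2 was about as high in LowInj as in LowCort. The plot of values by animal shows all 13 probe sets. Arrays measure whole CA1 blocks, so a change in transcripts per cell and a change in the number of expressing cells cannot be told apart. Levels of different probe sets are not comparable with each other, so levels are set side by side only within a probe set.

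**Figure D1:**
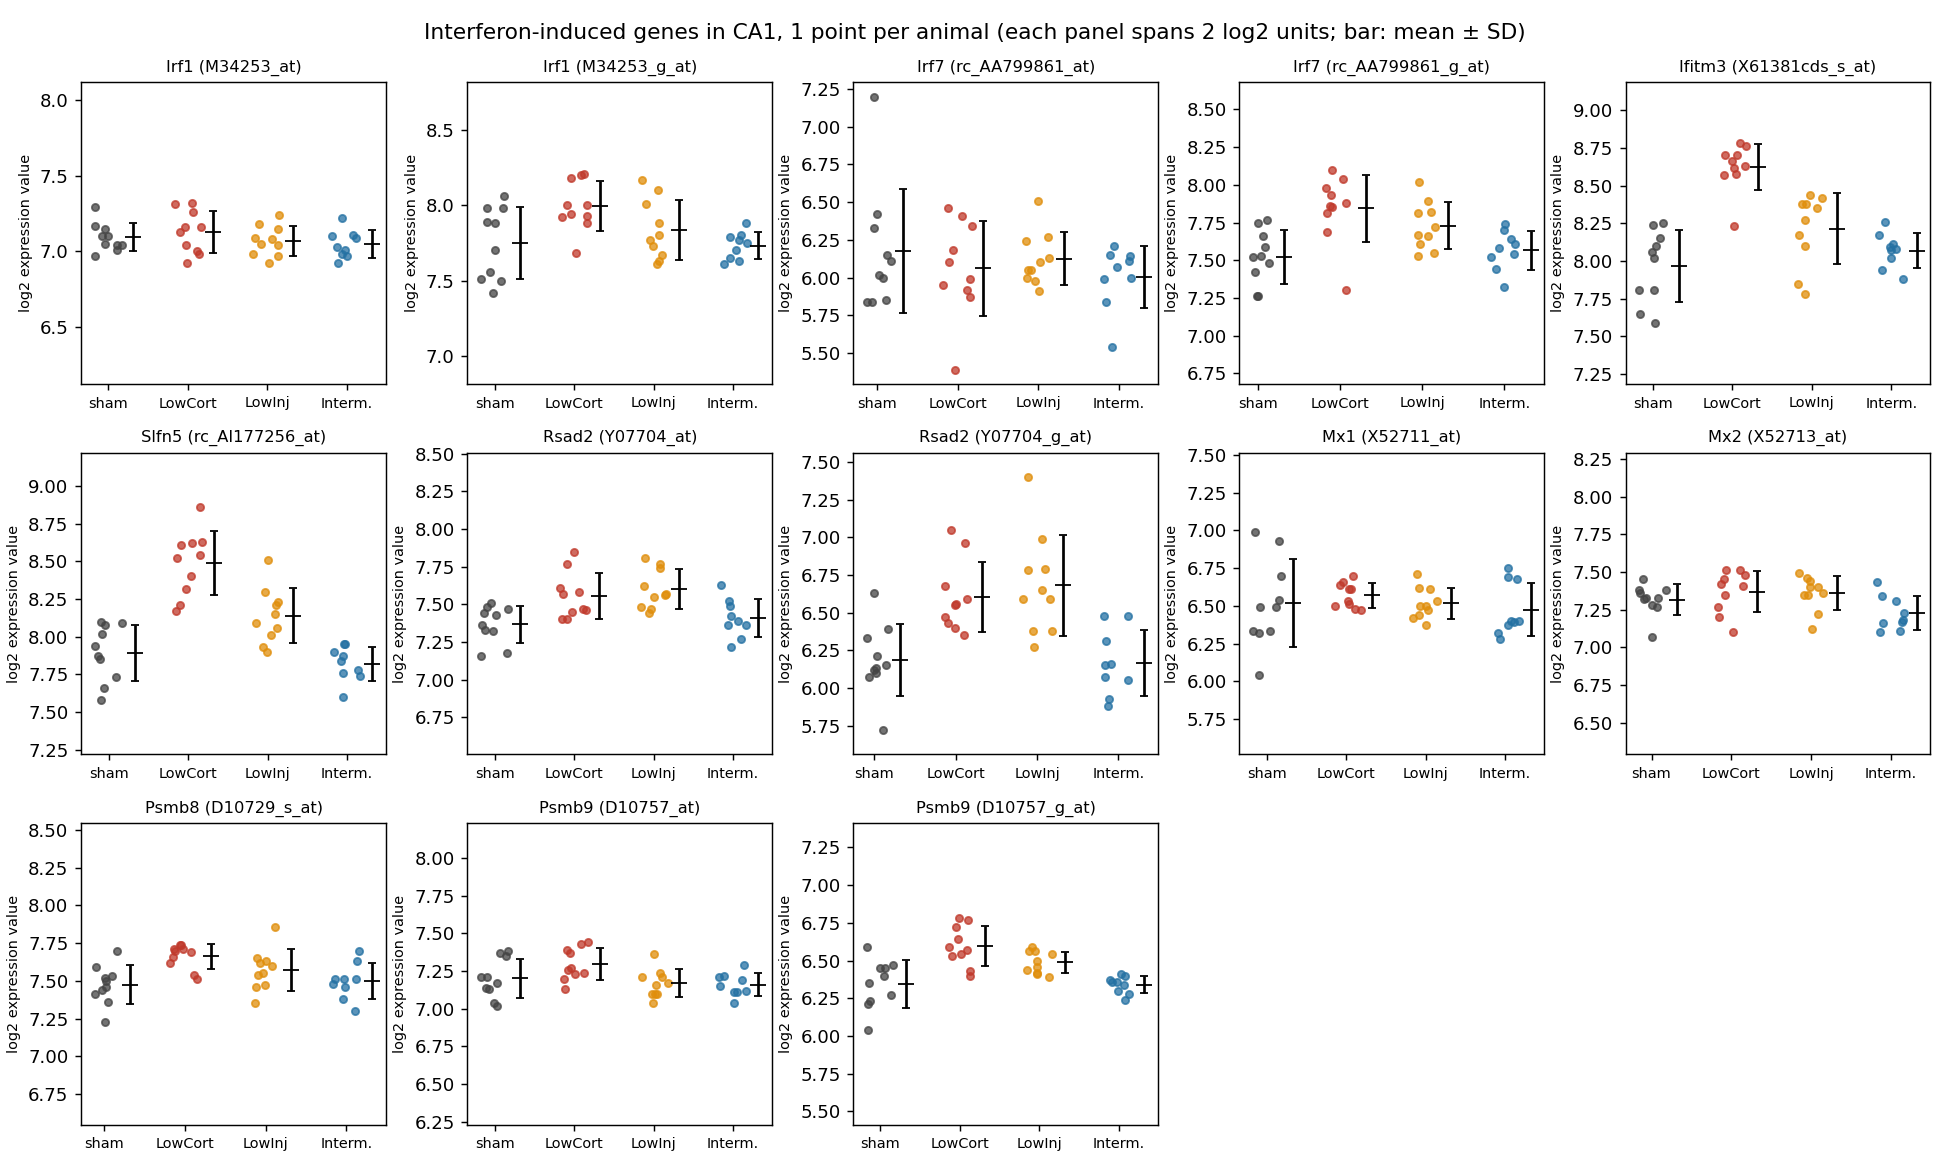
Log2 expression value of each of the 13 probe sets of the 9 interferon-induced genes, 1 point per rat, in sham (n = 10), LowCort (n = 10), LowInj (n = 10) and IntermediateCort (n = 9, written Interm.). Black marks are group means ± SD, and every panel spans 2 log2 units. All 10 LowCort rats lie above all 10 sham rats for Slfn5, whereas the 4 groups overlap for Mx1 and Mx2.

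Among the antiviral effectors, Ifitm3 encodes a membrane protein that hinders virus entry by fusion. Its log2 values ran from 7.59 to 8.25 in sham (median 8.04), from 8.23 to 8.78 in LowCort (median 8.65), from 7.78 to 8.44 in LowInj (median 8.31) and from 7.88 to 8.26 in IntermediateCort (median 8.08). LowCort was the highest group, with 9 of 10 rats higher than the highest sham rat. The exception was subject 20, at 8.23 when the next LowCort rat was at 8.57. In rising order the means were 7.97 ± 0.24 for sham (SD, n = 10), 8.07 ± 0.11 for IntermediateCort (n = 9), 8.21 ± 0.24 for LowInj (n = 10) and 8.62 ± 0.16 for LowCort (n = 10). Sham, IntermediateCort and LowInj overlapped as neighbours in that order, and LowInj overlapped LowCort. Below the lowest LowCort rat lay 4 of 10 LowInj rats and 8 of 9 IntermediateCort rats. The probe set, X61381cds_s_at, carries the suffix that Affymetrix gives to sets that can match several related transcripts, so other Ifitm genes may contribute to it.

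Slfn5 belongs to the schlafen family, whose transcripts are interferon-inducible. Its values ran from 7.58 to 8.10 in sham (median 7.91), from 8.17 to 8.86 in LowCort (median 8.53), from 7.90 to 8.51 in LowInj (median 8.12) and from 7.60 to 7.95 in IntermediateCort (median 7.84). Here LowCort did not overlap sham or IntermediateCort at all, and LowInj lay between, overlapping each of them. Group means were 7.82 ± 0.11 in IntermediateCort (SD, n = 9), 7.89 ± 0.19 in sham, 8.14 ± 0.18 in LowInj and 8.49 ± 0.21 in LowCort (n = 10 each). The 2 lowest groups did not differ beyond their spread.

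Rsad2, which encodes viperin, a radical SAM enzyme that blocks virus replication, had 2 probe sets. In Y07704_g_at the values ran from 5.72 to 6.63 in sham (median 6.14), from 6.35 to 7.05 in LowCort (median 6.55), from 6.27 to 7.40 in LowInj (median 6.62) and from 5.88 to 6.48 in IntermediateCort (median 6.15). Both groups on the low pellet were high and the other 2 groups low, with overlapping edges. In Y07704_at the medians had the same grouping, 7.40 in sham and 7.39 in IntermediateCort against 7.52 in LowCort and 7.56 in LowInj. Means of Y07704_g_at were 6.17 ± 0.22 in IntermediateCort (SD, n = 9), 6.19 ± 0.24 in sham, 6.60 ± 0.23 in LowCort and 6.68 ± 0.33 in LowInj (n = 10 each), and the last 2 did not differ beyond their spread.

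The Mx genes encode dynamin-like GTPases that trap viral components, and are standard indicators of type I interferon. In both, the ranges of the 4 groups overlapped and no difference passed in the main fit. Mx2 in IntermediateCort had -0.14 against LowCort (SE 0.06), with 8 of 9 rats below the LowCort mean. For Mx1, 6 of 9 IntermediateCort rats lay below the lowest LowCort rat and 1 above the highest. Mx1 had group means between 6.48 and 6.57, with sham alone ranging from 6.04 to 6.99. Mx2 had group means between 7.23 in IntermediateCort and 7.37 in LowCort, and the lowest and highest rats of all 4 groups lay within 7.07 to 7.51.

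Of the regulators, Irf7 is the transcription factor that amplifies type I interferon production, and Irf1 the one that carries much of the response to interferon gamma. Irf7 in the probe set rc_AA799861_g_at ran from 7.26 to 7.77 in sham (median 7.53), from 7.30 to 8.10 in LowCort (median 7.87), from 7.53 to 8.02 in LowInj (median 7.69) and from 7.32 to 7.74 in IntermediateCort (median 7.58). LowCort was again the highest group, with 8 of 10 rats above the highest sham rat, although subject 21 was at 7.30. The other Irf7 probe set, rc_AA799861_at, lay below the filter and went the other way, with a mean of 6.18 in sham and 6.06 in LowCort. Irf1 was highest in LowCort in M34253_g_at, at 8.00 ± 0.17 (SD, n = 10) against 7.75 ± 0.24 in sham (n = 10), 7.84 ± 0.20 in LowInj (n = 10) and 7.73 ± 0.09 in IntermediateCort (n = 9). In M34253_at its group means lay between 7.05 and 7.13.

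Psmb8 and Psmb9 encode catalytic subunits that replace their constitutive counterparts in the immunoproteasome, the form of the proteasome that favours peptides for MHC class I. Psmb9 in D10757_g_at ran from 6.04 to 6.59 in sham (median 6.37), from 6.40 to 6.78 in LowCort (median 6.58), from 6.39 to 6.59 in LowInj (median 6.48) and from 6.24 to 6.41 in IntermediateCort (median 6.36). IntermediateCort was narrow and low, and 8 of its 9 rats lay below the lowest LowCort rat. Its other probe set, D10757_at, had group means from 7.16 to 7.29, again with LowCort highest. Psmb8 had means of 7.47 ± 0.13 in sham (SD, n = 10), 7.50 ± 0.12 in IntermediateCort (n = 9), 7.57 ± 0.14 in LowInj (n = 10) and 7.66 ± 0.08 in LowCort (n = 10), and each group overlapped the next.

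The comparisons with LowCort are the ones in which these genes had been seen to differ, so their differences are given as a description. Counts of members past the fit's threshold (an adjusted p under 0.05 by limma) are printed beside the share of all probe sets past it, and nothing is read from them, since the same arrays led to the choice of members. All 12 member probe sets above the filter were higher in LowCort than in sham, by a median of 0.22 on the log2 scale, where the median of all 6118 probe sets tested was -0.01 and 47.1% were positive. Ifitm3 was higher by 0.65 (SE 0.09, 1.57-fold), Slfn5 by 0.60 (SE 0.08, 1.51-fold), Rsad2 by 0.42 (SE 0.11) and 0.19 (SE 0.06) in its 2 probe sets, and Irf7 by 0.32 (SE 0.08). Of the 12, 5 lay past the threshold as higher, with 1.05% of all probe sets there, namely Ifitm3, Slfn5, the Irf7 probe set, and 1 probe set each of Rsad2 and Psmb9. Irf7 stayed past it in 16 of the 20 fits that each left out 1 array of the 2 groups (not without sham subjects 1 or 2 or LowCort subjects 28 or 29). Rsad2 (Y07704_g_at) stayed past it in 8 of 20, not without sham subjects 1, 2, 3, 4, 5, 7 or 8 or LowCort subjects 20, 23, 24, 28 or 29. This probe set passed the filter only through LowCort and LowInj, with means of 6.19 in sham and 6.17 in IntermediateCort. With the 3′ to 5′ differences of Gapdh and beta-actin as covariates Rsad2 was no longer among the 5 and Psmb8 was, and in a fit of the 2 groups alone Irf7 and Psmb9 dropped out. Groups did not overlap for Slfn5 only, against 0.163% of all probe sets that were higher without overlap. The mean 3′ to 5′ difference, which widens as RNA shortens, was also larger in LowCort, at 0.81 for Gapdh and 0.93 for beta-actin, than in sham, at 0.70 and 0.68, and in IntermediateCort, at 0.63 and 0.65.

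In rats with the 200 mg pellet all 12 were lower than in LowCort, where 47.2% of all probe sets were, with a median difference of -0.21 against 0.01 over all probe sets. Slfn5 alone did not overlap, against 0.294% of all probe sets that were lower without overlap. The differences of IntermediateCort from LowCort were -0.67 for Slfn5 (SE 0.08), -0.55 for Ifitm3 (SE 0.09), -0.44 for Rsad2 (Y07704_g_at, SE 0.12), -0.28 for Irf7 (SE 0.08) and -0.26 for Psmb9 (D10757_g_at, SE 0.05). All 9 IntermediateCort rats lay below the LowCort mean for each of these 5. Of the 12, 4 lay past the threshold as lower, with 1.5% of all probe sets there, and Irf7 was not among them. Of the 4, Rsad2 stayed past it in 13 of 19 fits that left out 1 array (not without IntermediateCort subjects 13, 14, 15 or 16 or LowCort subjects 28 or 29), and was not past it with the 3′ to 5′ covariates. That Rsad2 probe set has the same limit from the filter here. The 2 comparisons share the LowCort arrays, so their opposite signs are not independent.

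In injected rats the members parted, with 10 of 12 differences from LowCort negative, where 45.1% of all probe sets were. LowInj was lower than LowCort by 0.41 on the log2 scale for Ifitm3 (SE 0.09), with 10 of 10 rats below the LowCort mean, and by 0.35 for Slfn5 (SE 0.08), with 9 of 10. These 2 members lay past the threshold as lower, with 0.196% of all probe sets there, and Slfn5 stayed past it in 11 of the 20 fits that left out 1 array (not without LowCort subjects 24 to 29 or LowInj subjects 33, 34 or 39). Rsad2 had 0.08 (SE 0.11) and 0.04 (SE 0.06) in its 2 probe sets, with 5 and 6 of 10 LowInj rats above the LowCort mean. Irf7 had -0.12 (SE 0.08) and Mx2 -0.01 (SE 0.05). Whether Rsad2 responded differently from Ifitm3 was not tested, since the contrast of these values was noticed in the same arrays.

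**Figure D2:**
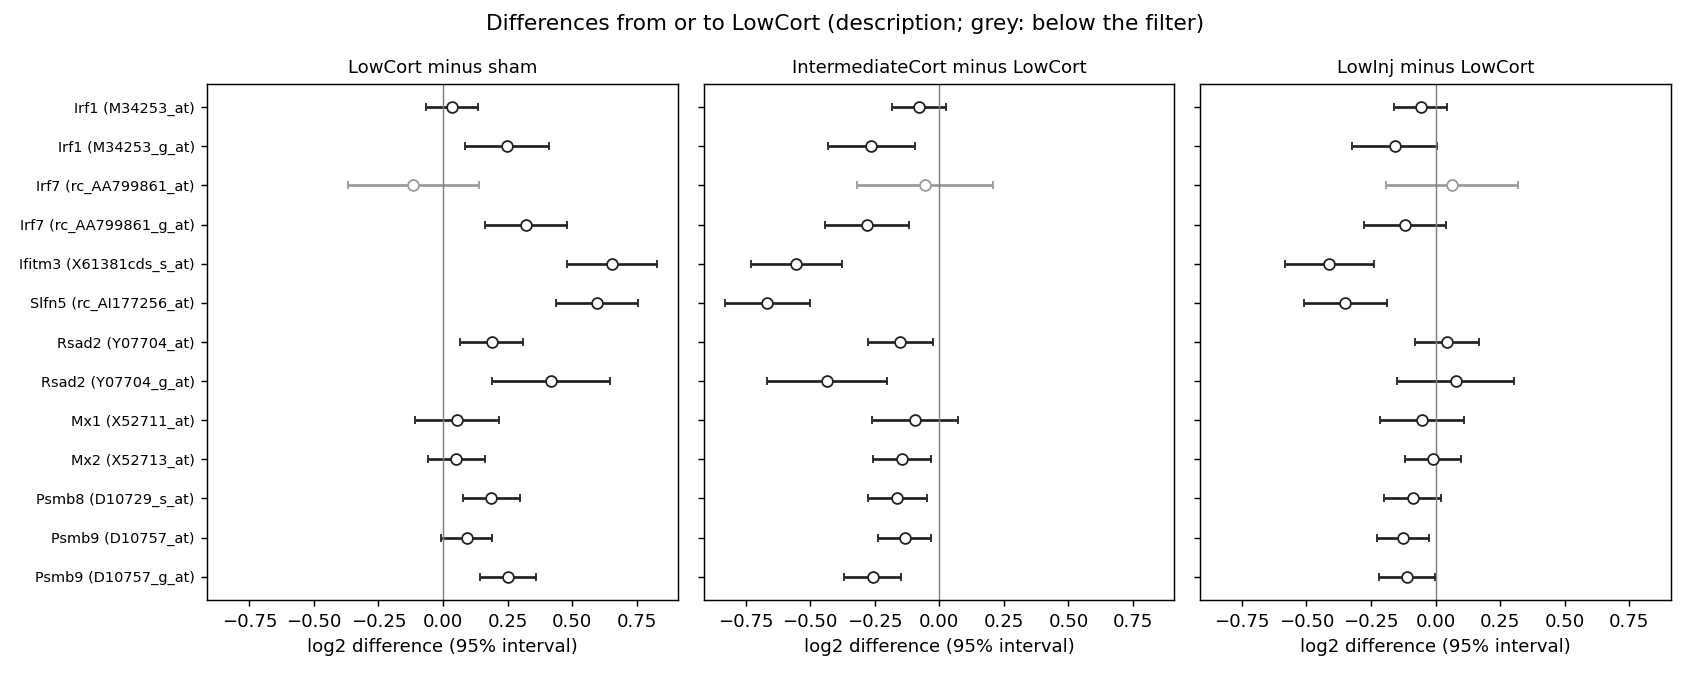
Log2 differences of the 13 probe sets with 95% intervals from the limma fit, for LowCort minus sham, IntermediateCort minus LowCort and LowInj minus LowCort. Grey marks the Irf7 probe set below the filter. The first panel lies to the right of 0 and the middle one to the left for the 12 probe sets above the filter, and in the last panel Ifitm3 and Slfn5 are the farthest to the left while both Rsad2 probe sets lie at 0.08 and 0.04.

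The comparisons without LowCort come from the same fit, with Benjamini-Hochberg adjustment over all 6118 probe sets. Members were chosen with these results known too, so their p-values and counts are a description and no independent test. No member passed between rats on the 200 mg pellet and intact rats. Of the 12, 0 passed by limma (lowest adjusted p = 0.998), 0 had an unadjusted p under 0.05, against 4.22% of all probe sets, and 0.0163% of all probe sets passed. The differences of IntermediateCort from sham lay between -0.09 for Mx2 (95% interval -0.20 to 0.02) and 0.10 for Ifitm3 (-0.08 to 0.28). For Slfn5 the difference was -0.07 (-0.23 to 0.09), and for Rsad2 in Y07704_g_at -0.02 (-0.25 to 0.21). An interval that holds 0 does not show equal levels.

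Rats given the injections on top of the low pellet had higher Rsad2 than intact rats in 1 of its 2 probe sets, and that call was lost under several settings. That probe set passed the filter only through the groups where it was high, so its call gives no independent support. The probe set Y07704_g_at was 1.41-fold higher in LowInj than in sham (log2 difference 0.50, SE 0.11, limma adjusted p = 0.0416), and lay above the sham mean in 10 of 10 rats. The second Rsad2 probe set had 0.23 (SE 0.06, adjusted p = 0.113), also in 10 of 10. The other members did not pass, among them Slfn5 with 0.25 (SE 0.08, adjusted p = 0.327), Ifitm3 with 0.24 (SE 0.09, adjusted p = 0.429), Irf7 with 0.20 (SE 0.08, adjusted p = 0.608) and Psmb9 with 0.14 in D10757_g_at (SE 0.05, adjusted p = 0.582). In all, 1 of 12 passed as higher, against 0.131% of all probe sets, and 6 of 12 had an unadjusted p under 0.05, against 5.95%. The call of Rsad2 was lost without the filter on low values (adjusted p = 0.0526), in a fit of the 2 groups alone (adjusted p = 0.17) and with the filter at the 50th percentile, which removes the probe set. It held in 7 of the 20 fits that left out 1 array, with differences of 0.42 to 0.54 and adjusted p of 0.0127 to 0.106. It was lost without any 1 of sham subjects 1, 2, 3, 4, 5, 7 and 8 or LowInj subjects 31, 32, 35, 36, 37 and 38.

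Against the group with the larger pellet, LowInj showed the same member, in the same probe set and with the same limit from the filter. Rsad2 in Y07704_g_at was 1.43-fold higher (log2 0.51, SE 0.12, limma adjusted p = 0.037), with 7 of 10 LowInj rats above the highest IntermediateCort rat. Its second probe set had 0.20 (SE 0.06, adjusted p = 0.185) and Slfn5 had 0.32 (SE 0.08, adjusted p = 0.0948), each with 10 of 10 rats above the IntermediateCort mean. All 12 differences were positive, where 56.8% of all probe sets were, 1 passed as higher against 0.114% of all probe sets, 5 had an unadjusted p under 0.05 against 11.4%, and Ifitm3 had 0.14 (95% interval -0.03 to 0.32, adjusted p = 0.545). The call was lost without the filter (adjusted p = 0.0511), with quantile normalization (adjusted p = 0.0535), in a fit of the 2 groups alone (adjusted p = 0.156) and with the higher filter, which removes the probe set. It held in 5 of 19 fits that left out 1 array, with differences of 0.43 to 0.56. It was lost without any 1 of IntermediateCort subjects 11, 12, 13, 14, 15, 16 and 19 or LowInj subjects 31, 32, 34, 35, 36, 37 and 38. The highest LowInj rat was subject 38, at 7.40.

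**Figure D3:**
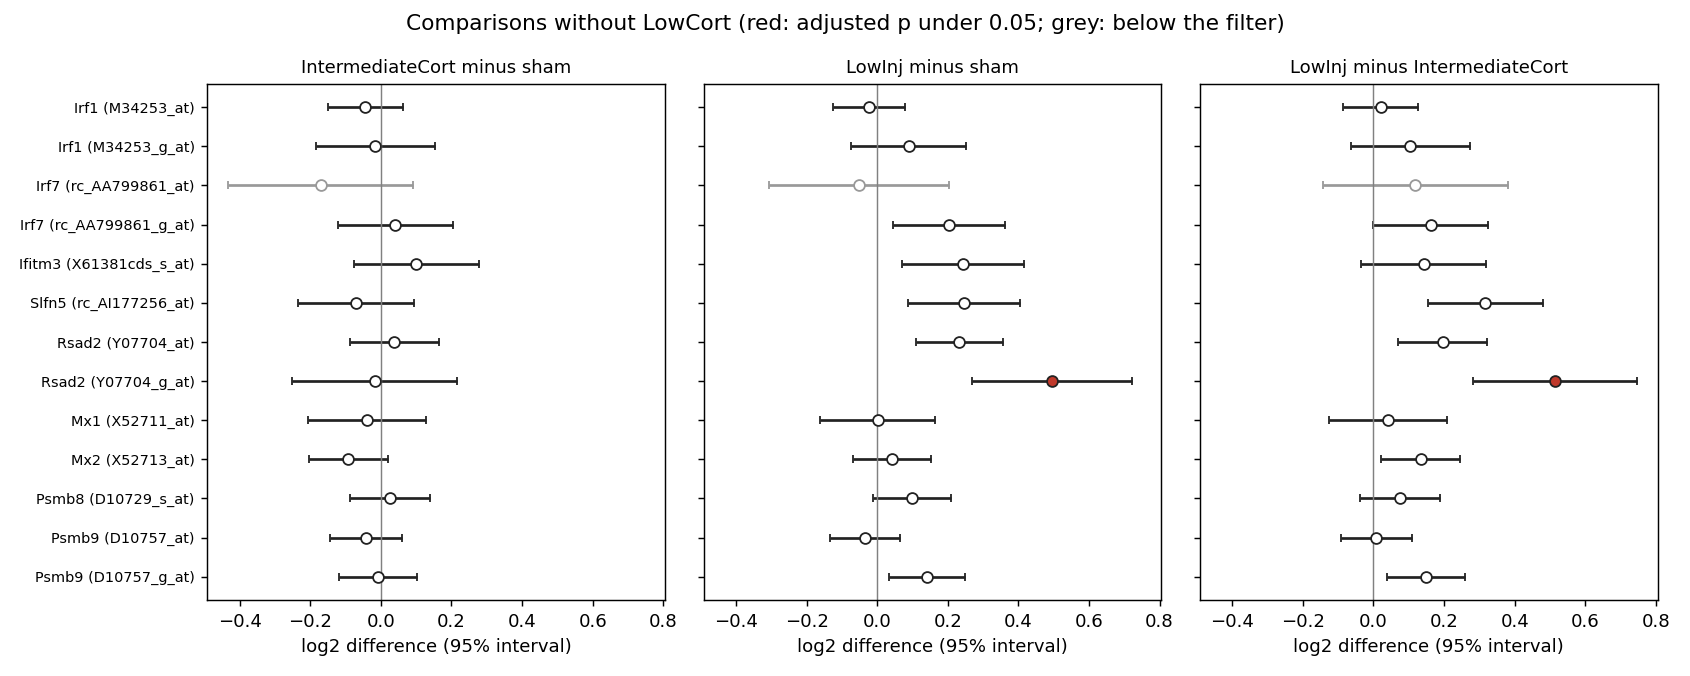
Log2 differences of the 13 probe sets with 95% intervals from the limma fit, for IntermediateCort minus sham, LowInj minus sham and LowInj minus IntermediateCort. Filled red points passed at an adjusted p under 0.05, and grey marks the Irf7 probe set below the filter. Only the Rsad2 probe set Y07704_g_at, which passed the filter only through LowCort and LowInj, is filled, at 0.50 and 0.51.

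Red cell markers were also high in LowInj, and RNA quality varied most there. The mean log2 level over the 3 red cell markers above the filter (Hbb, Hbb-b1 and Alas2, of 10 listed red cell and granulocyte genes) ranged from 10.12 to 11.41 in LowInj, against 9.74 to 10.49 in sham, 9.10 to 10.39 in LowCort and 9.41 to 10.57 in IntermediateCort. The granulocyte markers S100a8 and S100a9 lay below the filter. The mean Gapdh 3′ to 5′ difference was 1.03 in LowInj, 0.81 in LowCort, 0.70 in sham and 0.63 in IntermediateCort. Its medians were 0.776 in LowInj, 0.777 in LowCort, 0.645 in sham and 0.564 in IntermediateCort. It was up to 2.41 in a LowInj rat and at most 1.15 in the other groups. With the Gapdh and beta-actin differences as covariates, Rsad2 had 0.46 against sham (limma adjusted p = 0.0491) and 0.47 against IntermediateCort (adjusted p = 0.0562). The part of red cell RNA in the Rsad2 difference was not tested.

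Of 99 other interferon genes listed (ligands, receptors and signalling, regulators and sensors, effectors, chemokines, antigen processing), 28 were on the array and 21 above the filter. Taking the probe set with the highest mean for each, 1 of 21 rose in LowCort against sham and 0 fell, where 1.05% of all probe sets rose. Of the 21 differences 17 were positive, where 47.1% of all probe sets were, with a median of 0.04 against -0.01. The gene that rose was Slfn2, another schlafen, with 7.66 ± 0.10 in LowCort and 7.47 ± 0.08 in sham (SD, n = 10 each), a difference of 0.19 (SE 0.05, limma adjusted p = 0.0409). It had -0.17 in IntermediateCort against LowCort (adjusted p = 0.084). In the 5 other comparisons 0 of the 21 passed in either direction by limma.

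By role, the ligand interferon gamma (Ifng) had -0.03 in LowCort against sham (adjusted p = 0.903). Among the receptors and kinases, the type I receptor chain Ifnar1 had 0.26 (adjusted p = 0.148), the interferon gamma receptor chain Ifngr1 -0.08 (adjusted p = 0.786), Jak1 -0.17 (adjusted p = 0.806) and Jak2 0.13 (adjusted p = 0.56). None of these 5 passed in any comparison by limma. Other regulators did not pass either, with Irf2 at 0.02, Irf3 at 0.05 and Socs3, a feedback inhibitor of cytokine signalling, at 0.02 (lowest adjusted p = 0.751). The RNA-sensing antiviral enzyme Oas1a had 0.04 (adjusted p = 0.791) and the RNA editing enzyme Adar -0.14 (adjusted p = 0.563).

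Several listed genes passed in a probe set other than that with the highest mean. Lgals3bp, a secreted scavenger receptor-like glycoprotein, rose in AF065438_at by 0.30 in LowCort against sham (SE 0.06, limma adjusted p = 0.00116) and fell by 0.23 in IntermediateCort against LowCort (SE 0.06, adjusted p = 0.0229), while the probe set with its highest mean had 0.03 and -0.11. The peptide transporter Tap1 fell by 0.26 in X57523_g_at (SE 0.07, adjusted p = 0.0246) and the proteasome activator Psme1 by 0.26 in D45249_g_at (SE 0.05, adjusted p = 0.00192), both in IntermediateCort against LowCort. Their probe sets with the highest mean had -0.13 and -0.14 and did not pass. Over all 26 probe sets of the 21 genes, 2 rose in LowCort against sham, against 1.05% of all probe sets, and 3 fell in IntermediateCort against LowCort, against 1.5%.

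Of 14 listed core subunits of the constitutive proteasome, 11 were above the filter, and 0 passed in LowCort against sham by limma (lowest adjusted p = 0.389), with a median difference of 0.01. Psmb5, the subunit that Psmb8 replaces, had -0.12 in LowCort against sham (adjusted p = 0.389), where Psmb8 had 0.19. The difference between these 2 values was not tested.

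Markers of other cell types differed unevenly between the groups. The mean log2 level over 12 microglial and macrophage markers above the filter (of 24 listed) ranged from 8.07 to 8.36 in LowCort, 8.11 to 8.21 in sham, 8.07 to 8.30 in LowInj and 8.01 to 8.26 in IntermediateCort. In LowCort against sham 1 of the 12 rose, where 1.05% of all probe sets did. Differences were positive for 7 and negative for 5, with a median of 0.05, where 47.1% of all probe sets were positive. In IntermediateCort against LowCort 2 of the 12 fell, where 1.5% of all probe sets did, and 9 were negative, where 47.2% were. In LowInj against LowCort 6 were positive and 6 negative, where 45.1% of all probe sets were negative. In LowInj against IntermediateCort 11 were positive, where 56.8% of all probe sets were. Fcgr2b, which encodes an inhibitory Fc receptor, was the 1 that rose in LowCort against sham, by 0.54 (SE 0.10, limma adjusted p = 9.51e-04). It fell in LowInj against LowCort by 0.43 (adjusted p = 0.037). The Fcgr2b probe set had means of 6.81 in LowCort and 6.38 in LowInj, against 6.27 in sham and 6.21 in IntermediateCort. It passed the filter of 6.28 only through the groups where it was high, so its calls give no independent support. The 2 that fell in IntermediateCort against LowCort were Fcgr2b with -0.60 (adjusted p = 4.12e-04) and Cd53 with -0.25 (adjusted p = 0.0229). A second probe set of Aif1 (U10894_s_at), a microglial marker, rose in LowCort against sham by 0.53 (SE 0.14, limma adjusted p = 0.0396). It had -0.54 in IntermediateCort against LowCort (adjusted p = 0.0335). The Aif1 probe set with the highest mean, which enters the list, did not pass in either comparison. The mean over 7 endothelial markers (of 14) ranged from 8.18 to 8.34 in LowCort, 8.07 to 8.22 in sham, 8.09 to 8.36 in LowInj and 8.02 to 8.21 in IntermediateCort. In LowCort against sham 1 of these 7 rose, the transporter Slco1a4 by 0.56 (SE 0.10, limma adjusted p = 4.21e-04). Differences there were 5 positive and 2 negative, with a median of 0.03. In IntermediateCort against LowCort 2 fell, Slco1a4 with -0.59 (adjusted p = 3.52e-04) and Ocln with -0.19 (adjusted p = 0.0371), and 6 of 7 were negative. In LowInj against IntermediateCort 6 of 7 were positive. The shares of all probe sets are those given for the microglial list. Of 3 choroid plexus and ependyma markers above the filter (of 6), Enpp2 rose in LowCort against sham by 0.40 (SE 0.11, limma adjusted p = 0.0409). There 1.05% of all probe sets rose. Enpp2 fell in IntermediateCort against LowCort by 0.44 (SE 0.11, adjusted p = 0.0207), where 1.5% of all probe sets fell. Its second probe set (D28560_g_at) had -0.51 there (adjusted p = 0.0114) and did not pass in LowCort against sham. Kl and Ttr did not pass. In LowCort against sham Kl had 0.07 (adjusted p = 0.627) and Ttr went the other way, with -0.21 (adjusted p = 0.528). In IntermediateCort against LowCort Kl had -0.08 and Ttr 0.06. Of the T cell markers 5 of 11 lay above the filter, with group means of 7.29 to 7.33, and Cd3d and Cd3g lay below it. Of 7 astrocyte markers above the filter (of 10) 0 passed in LowCort against sham, with 1 difference positive and 6 negative (median -0.07). In IntermediateCort against LowCort 0 passed, with 5 positive and 2 negative. Of 6 oligodendrocyte markers above the filter (of 7) 0 passed in LowCort against sham, with 5 positive and 1 negative. Cnp fell in IntermediateCort against LowCort, with -0.28 (limma adjusted p = 0.0137), where 2 were positive and 4 negative. For the astrocyte and oligodendrocyte lists too, the shares of all probe sets are those given for the microglial list. The part of microglia, vessel, choroid plexus or other glial cells in the members' differences was not tested.

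The labelled tissue was checked against its markers. All 7 neuronal markers on the array lay above the filter, with group means of 9.42 to 9.63 over the list. In LowInj against IntermediateCort 2 of these 7 were positive, where 56.8% of all probe sets were, and 5 negative, with a median of -0.24. Camk2a passed there, with -0.57 (limma adjusted p = 0.0251), where 12 of all 6118 probe sets passed in either direction. In IntermediateCort against LowCort 6 were positive and 1 negative, with a median of 0.14, where 47.2% of all probe sets were negative. In LowCort against sham 2 were positive and 5 negative, with a median of -0.04, where 47.1% of all probe sets were positive. In these last comparisons 0 of the 7 passed. Of 6 listed markers of CA1 pyramidal neurons 2 were on the array (Pou3f1 and Man1a1), so the field itself was hardly tested. Of 7 listed markers of CA3, CA2 and the dentate gyrus, 3 (Grik4, Bok and Pcp4) lay above the filter, with group means of 8.56 to 8.68. The part of neighbouring fields or of neuron content was not tested. The arrays were alike, with pairwise correlations over all non-control probe sets of 0.9737 to 0.9980 and medians of 7.27 to 7.33.

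Within groups, a few members varied together from rat to rat. After group means were removed, Ifitm3 and Slfn5 were related over the 39 rats (Pearson's r = 0.466, permutation p = 0.00565, adjusted p = 0.0306 among 7 pairs, Spearman's rho = 0.436, permutation p = 0.00912, adjusted p = 0.0319). Their r was 0.674 in sham, 0.553 in LowCort, 0.387 in LowInj and -0.138 in IntermediateCort, and 0.341 without the 2 rats farthest from the median of Ifitm3. Psmb8 and Psmb9 (D10757_at) were related at r = 0.430 (permutation p = 0.00873, adjusted p = 0.0306, rho = 0.458, permutation p = 0.00544, adjusted p = 0.0319), positive in all 4 groups from 0.212 in LowInj to 0.588 in IntermediateCort, and 0.416 without the 2 farthest rats. This pair no longer passed after the 3′ to 5′ differences (r = 0.377, permutation adjusted p = 0.0962) or subject order (r = 0.362, permutation adjusted p = 0.105) were removed.

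**Figure D4:**
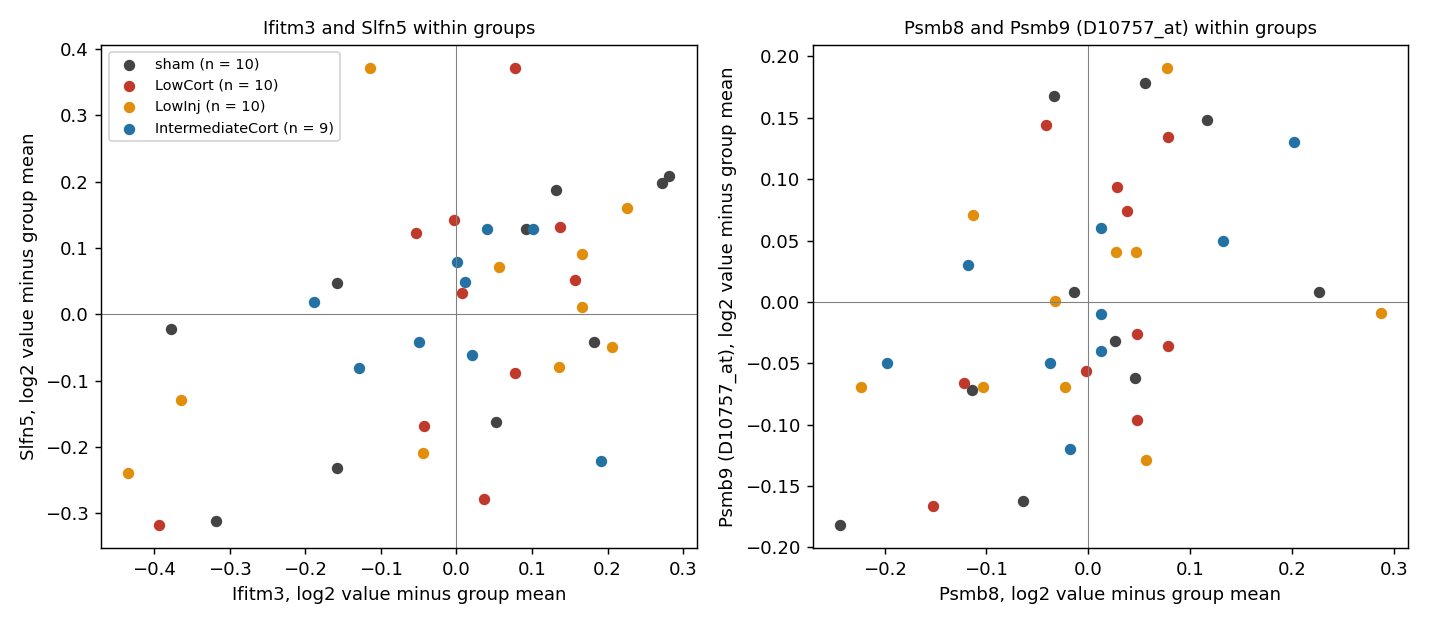
Log2 values minus the group mean for Ifitm3 against Slfn5 (left) and Psmb8 against Psmb9 (right), 1 point per rat, coloured by group. Points rise from lower left to upper right in both panels, with r = 0.466 and r = 0.430 over 39 rats.

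The other pairs did not pass. Ifitm3 and Irf7 had r = -0.011 (permutation p = 0.948, adjusted p = 0.948, rho = -0.037, permutation p = 0.834), although both were highest in LowCort. Slfn5 and Irf7 had r = 0.329 (permutation p = 0.0653, adjusted p = 0.152, rho = 0.234, permutation p = 0.177). Mx1 and Mx2, neighbours and close relatives, had r = 0.045 (permutation p = 0.776, rho = 0.037, permutation p = 0.822), Irf1 and Psmb9 had r = 0.196 (permutation p = 0.293, rho = 0.210, permutation p = 0.244), and Rsad2 (Y07704_at) and Mx1 had r = -0.184 (permutation p = 0.255, rho = -0.247, permutation p = 0.146).

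Genes whose values over the 39 arrays were most like those of a member are given as a description, since they are the highest of 3620 genes. Most like Ifitm3 were Vamp3 (r = 0.872), a vesicle fusion protein, Serpinh1 (r = 0.841), a collagen chaperone, Slfn5 (r = 0.802), Fcgr2b (r = 0.797) and Cpq (r = 0.782). With group means removed, the r of Vamp3 was 0.814 and that of Serpinh1 0.550. Most like Slfn5 were Ifitm3 (r = 0.802), the cell cycle regulator Ccnd1 (r = 0.792), the carbonic anhydrase Car4 (r = 0.785), the vessel transporter Slco1a4 (r = 0.785) and S100a4 (r = 0.742), falling to 0.302 to 0.518 with group means removed. Irf7 was most like Slc12a7 (r = 0.775), the MHC class I gene RT1-S3 (r = 0.765), Apol3l1 (r = 0.742), Ginm1 (r = 0.731) and R3hcc1 (r = 0.730), and kept 0.669 to 0.740 with group means removed. Psmb9 (D10757_at) was most like Ahr (r = 0.696), Apoc3 (r = 0.679), Ackr3 (r = 0.668), Or6d13b (r = 0.667) and Tnfrsf1a (r = 0.662).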

How the data were processed

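Total RNA from CA1 tissue of 39 rats was labelled with biotin and hybridised to 1 array per rat, per the labels' protocols. The deposited table holds log2 expression values of 8799 probe sets, from 2.82 to 14.37. The log base was read from the values. The submitters' processing notes list MAS5, RMA and R 2.7.1. Their roles are not given in the sources used here, and the values were used without further normalization.

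Groups came from the labels. Control probe sets (59) did not enter the fit. Of 8740 others, 7006 had 1 symbol, 308 several and 1426 none. Entrez identifiers of 6985 matched the GRCr8 gene table, changing 0 symbols. The 6118 probe sets at or above the 30th percentile of the mean were fitted with limma 3.58.1 in R 4.3.3 (all arrays, 1 mean per group, Benjamini-Hochberg, two-sided), after the script had been tested on simulated data. Genes with several probe sets are given by probe set, and lists use the one with the highest mean. Correlations were permuted within groups 100000 times (two-sided). Alternatives changed the filter, normalization, array weights, covariates, groups fitted and arrays left out, the last chosen after seeing the data. Members and lists were chosen with earlier results of these data known. Named genes were all members, up to 4 genes per list with the smallest p, and the 5 most like genes of Ifitm3, Slfn5, Irf7 and Psmb9; genes named for a call in a second probe set were chosen after their values were seen. Arrays hold no read depth, and their number limits the precision. The labels number each rat as a separate subject.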

Additional observations from a re-analysis of the deposited data

Results flagged for a closer look

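Of 52 sets of 9 or 10 rats (13 probe sets in 4 groups), 4 held a rat far from the others of its group by Dixon's criterion, and chance gives about 1 in 20. In LowCort, subject 20 had the lowest Ifitm3, at 8.23 with the next rat at 8.57, and subject 21 the lowest Irf7 (rc_AA799861_g_at), at 7.30 with the next at 7.69. In sham, subject 3 had the lowest Mx2, at 7.07 with the next at 7.27, and subject 5 the highest Irf7 in the probe set below the filter (rc_AA799861_at), at 7.20 with the next at 6.42. These were 4 different rats.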

How the results depend on the processing

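No paired analysis was possible because each subject number belongs to 1 rat. Differences of single members kept their direction wherever they were called. Calls of members, 5 of 12 in LowCort against sham, became 3 with the filter at the 50th percentile or a fit of the 2 groups. For IntermediateCort against LowCort 4 became 2 with that filter and 8 with array weights, and for LowInj against LowCort 2 became 1 in the 2-group fit. The call of Rsad2 in LowInj against sham was lost (0 members) without a filter, with the higher filter, which removes that probe set, and in the 2-group fit, and 2 passed with subject order. Against IntermediateCort 0 passed in those settings, with quantile normalization or with the 3′ to 5′ covariates, and 3 passed with array weights (Rsad2, Slfn5, Mx2). Leaving out 1 array gave 3 to 6 calls in LowCort against sham, 3 to 6 in IntermediateCort against LowCort, 1 to 2 in LowInj against LowCort, 0 in IntermediateCort against sham, 0 to 1 in LowInj against sham and 0 to 2 in LowInj against IntermediateCort.

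Calls over all probe sets went from 103 to 170 with array weights, 175 with the 3′ to 5′ covariates and 185 with subject order in LowCort against sham, and from 131 to 338 with array weights in IntermediateCort against LowCort. They went from 21 to 50 and 36 with weights and order in LowInj against LowCort, and from 1 to 2, 12, 2 and 4 with weights, covariates, order and the 2-group fit in IntermediateCort against sham. They went from 14 to 5, 33, 22, 30 and 1 in LowInj against sham, and from 12 to 6, 105, 19, 21 and 0 in LowInj against IntermediateCort, with the higher filter, weights, covariates, order and the 2-group fit. The correlation of Psmb8 with Psmb9 was 0.377 (permutation adjusted p = 0.0962) after the 3′ to 5′ differences and 0.362 (permutation adjusted p = 0.105) after subject order, and no longer passed. The cause of these shifts was not tested.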
